A study of Oryza sativa Japonica Group with 12 samples.

Results

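Photosystem I is the chlorophyll-protein complex of the thylakoid membrane that takes electrons from plastocyanin on the lumen side and passes them to ferredoxin on the stroma side. Its reaction centre is made of plastid-encoded proteins, around which smaller subunits encoded in the nucleus are assembled after import into the chloroplast. These smaller subunits dock the mobile electron carriers and hold the light-harvesting antenna, and their genes are known in leaves for strong, light-dependent expression. The set described here comprised 9 nuclear genes chosen by locus ID, and all 9 were among the 38978 rows of the count table and among the 20217 rows abundant enough to test. They were PsaD (Os08g0560900), PsaE (Os07g0435300), PsaF (Os03g0778100), PsaG (Os09g0481200), PsaH (Os05g0560000), PsaK (Os07g0148900), PsaL (Os12g0420400), PsaN (Os12g0189400) and PsaO (Os04g0414700). The count table carries the IDs alone, and the subunit names are those of the ID list.

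The study measured leaf RNA of rice, japonica cultivar Nipponbare, in 3 groups of 4 libraries, all from field-grown plants sampled at 10 in the morning. WT was the cultivar without a transgene. Line7 and Line8 were the homozygous transgenic lines p35s-Ami-YGL1 line 7 and line 8, in which the 35S promoter, active in most plant tissues, drives an artificial microRNA against YGL1, the chlorophyll synthase gene. The comparison asks what happens to the photosystem I subunit mRNAs when a late step of chlorophyll synthesis is the target of a knock-down. No group carried an empty construct, the age of the plants is not given in the labels, and separate plants are not named as the source of the replicates. The p-values therefore compare samples whose spread may be technical.

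Libraries held 14746933 to 19822636 counts, and each of the 9 genes had 3065 to 49407 counts in every library, so counting error was small beside the spread between replicates. Os05g0349700, the ID written down for the microRNA's target and not named in the files, was at 57.7, 44.2, 47.8 and 69.1 CPM (TMM-scaled counts as a proportion of the library's counts, in the usual CPM unit) in WT replicates 1 to 4. It was at 34.4, 68.1, 27.4 and 27.8 CPM in Line7 and 26.1, 33.4, 23.8 and 24.0 CPM in Line8, so the library labelled Line7 replicate 2 lay inside the WT range and every other line library below it. The log2 fold change of this ID was -0.47 (SE 0.275, edgeR adjusted p = 0.291) in Line7 and -1.03 (SE 0.278, adjusted p = 0.0172) in Line8. By its whole profile the library labelled Line7 replicate 2 also lay with WT, at -75.3 on a first principal component where WT ran from -85.2 to -62.1 and the other line libraries from 25.4 to 84.8. On the second component Line8 replicate 3 (113) and WT replicate 1 (61.1) stood apart from the other libraries (-50.4 to 3.53). Some of the results that rest on these libraries are also given without them. Of the leaf markers, psbA had 32 counts over the 12 libraries and could not serve as a check, and rbcL was not analysed here. By summed counts, without regard to gene length, the 9 genes ranked between 57 and 175 among the tested rows.

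Of the photosystem I subunit mRNAs, PsaH, PsaE, PsaO and PsaN rose in Line8 and PsaH and PsaE in Line7, with PsaH changing most. PsaD, PsaF, PsaG, PsaK and PsaL did not pass the edgeR test in either line with all libraries in the fit. With DESeq2 PsaK passed in Line8 (adjusted p = 0.0437) and PsaO in Line7 (0.0347). Both Line7 calls were lost with upper-quartile size factors (edgeR adjusted p = 0.0546 for PsaE and 0.0558 for PsaH) and with limma-voom (0.0887 and 0.0910). Of all rows, limma-voom called 0.109% in Line7, where edgeR with TMM called 6.97%. Both calls were also lost in edgeR with only the WT and Line7 libraries in the fit (0.0670 and 0.0537) and with a replicate block (0.0990 and 0.0893). That of PsaH was also lost without a filter on low counts (0.0565). Both calls held with DESeq2 (adjusted p = 0.00608 and 0.00425). In edgeR both held with RLE size factors (0.0472 and 0.0488), library totals only (0.0298 and 0.0304) and a filter of CPM above 1 in at least 4 libraries (0.0420 and 0.0439). Together the 9 genes took 0.610 ± 0.0967% of all counts in the WT libraries (SD, n = 4), and on average 1.00 ± 0.301% in those of Line7 and 1.18 ± 0.450% in those of Line8. By library the share was 0.488, 0.693, 0.579 and 0.682% in WT, 1.08, 0.569, 1.26 and 1.11% in Line7 and 1.14, 1.76, 0.663 and 1.14% in Line8. The library labelled Line7 replicate 2 and Line8 replicate 3 thus fell inside the WT range, and the other 6 line libraries exceeded every WT library. Each of the 9 genes, taken alone, was also higher in each of those 6 libraries than in any WT library, as were 15.9% of all tested rows. Those 6 were set apart by the level of the 9 genes themselves, so this is a description of them. In bulk leaf RNA, a change in the share of chloroplast-rich cells and a change in RNA per cell cannot be told apart.

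**Figure D1:**
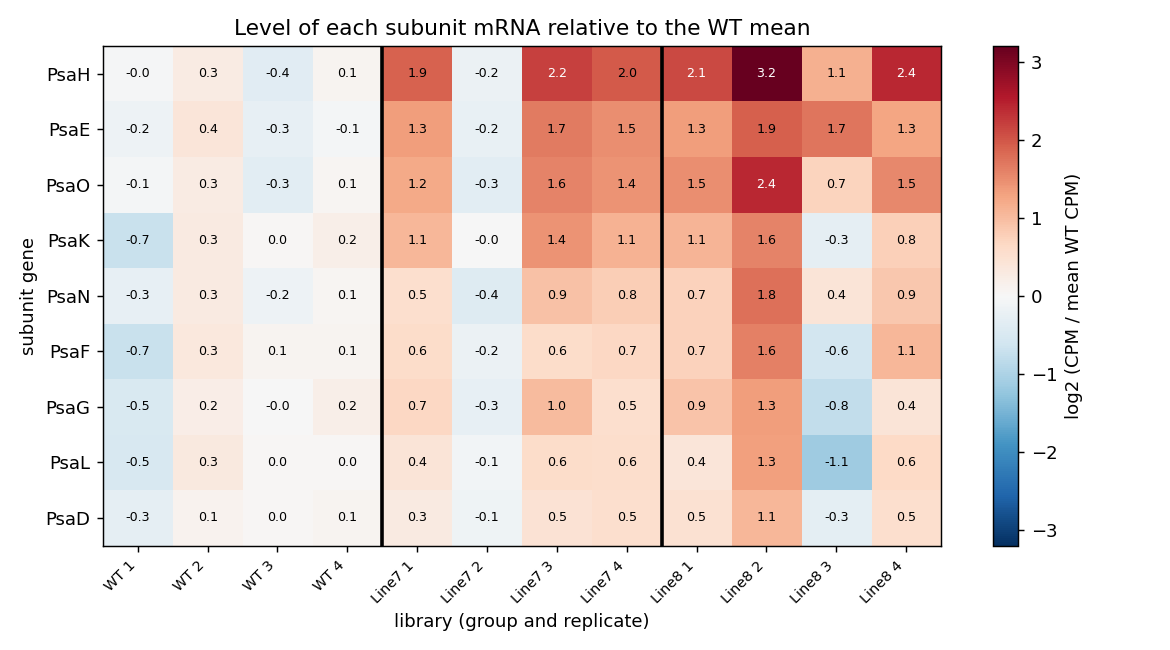
Level of each photosystem I subunit mRNA in each library, as log2 of its CPM (TMM-scaled) over the mean CPM of the 4 WT libraries, with replicates numbered and black lines between the groups. PsaH, PsaE and PsaO show the deepest colours in the line libraries, the library labelled Line7 replicate 2 is pale like WT, and in Line8 replicate 3 PsaL (-1.15) and PsaE (1.72) go opposite ways.

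In Line8 against WT, 4 of the 9 genes rose and 0 fell (edgeR quasi-likelihood test, Benjamini-Hochberg adjusted p below 0.05), where 15.5% of all tested rows were called higher and 11.8% lower. The 4 were PsaH, PsaO, PsaE and PsaN. In Line7 against WT, 2 of 9 rose, PsaH and PsaE, and 0 fell, against 5.92% of all tested rows called higher and 1.05% lower. For the mean of both lines, 3 of 9 rose, PsaH, PsaE and PsaO, and 0 fell, against 14.2% of all rows called higher and 10.1% lower. All 9 fitted changes were above 0 in each line, as were 49.4% of those of all tested rows in Line7 and 46.2% in Line8. The 9 genes were correlated over the libraries (median Pearson coefficient 0.86 over 36 pairs), so these are not 9 separate results. The median log2 fold change of the 9 genes was 0.57 in Line7, 0.94 in Line8 and 0.79 over both lines, beside medians of -0.01, -0.07 and -0.05 over all tested rows. The lines were compared with the same WT libraries, so their values for a gene are not independent of each other.

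**Figure D2:**
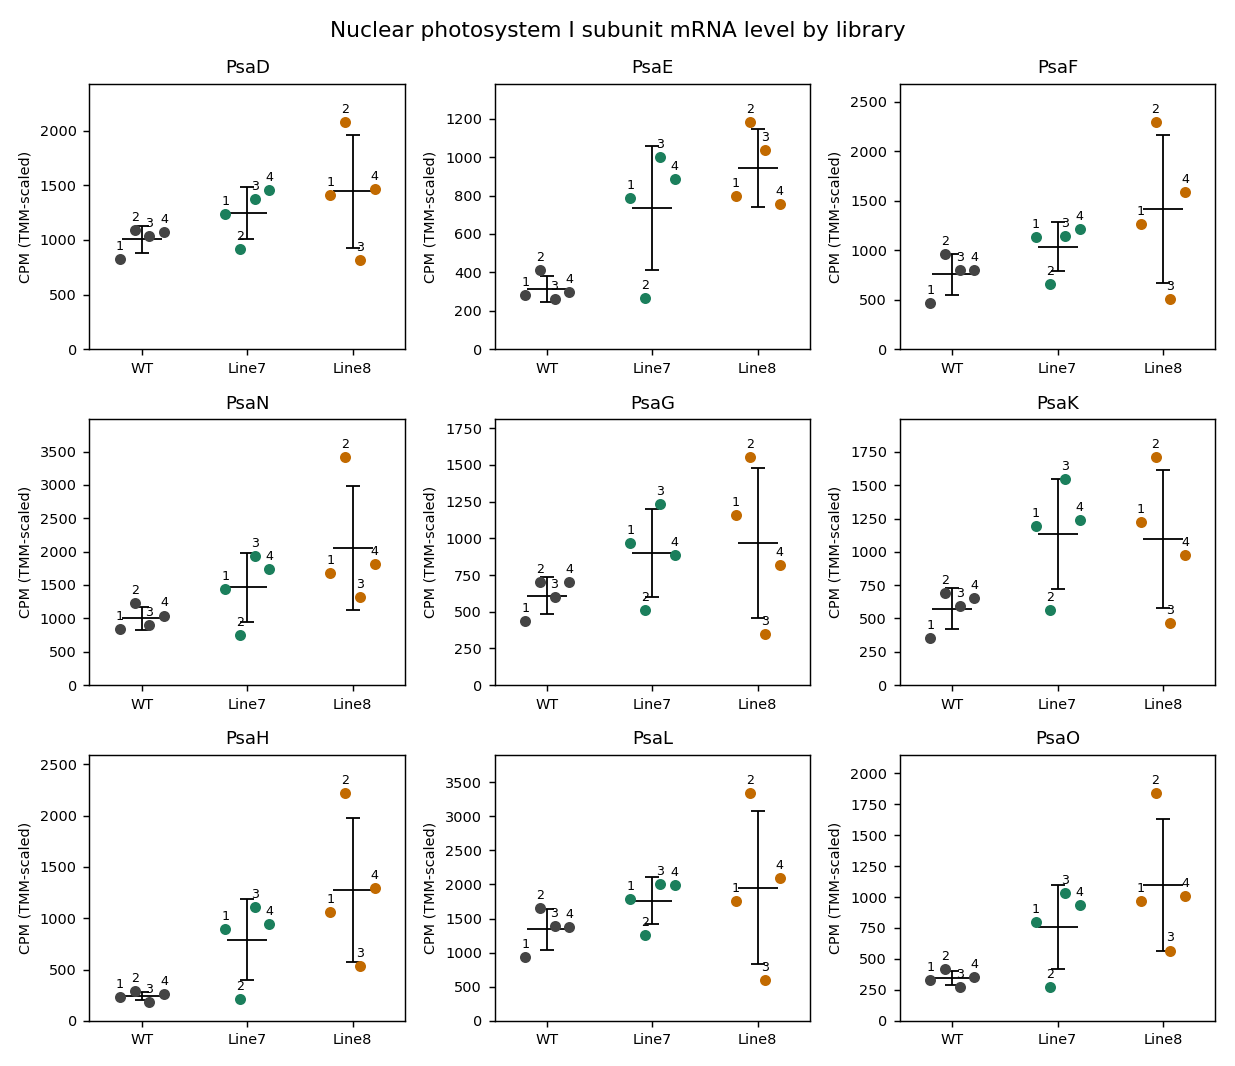
TMM-scaled CPM of the 9 genes in WT, Line7 and Line8, 1 point per library with its replicate number, and a bar for the mean with an error bar of 1 SD (n = 4). In every panel the library labelled Line7 replicate 2 lies at or near the WT libraries and Line8 replicate 2 is the highest library. Levels should be compared within a panel and not between panels, since CPM does not correct for gene length.

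PsaD and PsaE sit on the stromal face of the complex, where they form the docking site for ferredoxin with the plastid-encoded PsaC. Their mRNAs differed in how far they departed from WT. PsaE was at 283, 411, 264 and 299 CPM in WT replicates 1 to 4, 788, 267, 1003 and 885 CPM in Line7 and 796, 1185, 1038 and 757 CPM in Line8. All Line8 libraries lay above all WT libraries, and so did the Line7 libraries apart from replicate 2. PsaE averaged 314 ± 66.1 CPM in WT (SD, n = 4) and rose in Line8 to 944 ± 203 CPM, a log2 fold change of 1.59 (SE 0.339, edgeR adjusted p = 0.00617), and this call held with each of the 12 libraries left out. In Line7 the mean was 736 ± 324 CPM and the log2 fold change 1.23 (SE 0.336, edgeR adjusted p = 0.0464). In Line8 replicate 3 PsaE was inside the range of the other 3 Line8 libraries, whereas each of the other 8 subunits was lower there than in any other Line8 library.

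PsaD was at 825, 1092, 1034 and 1070.2 CPM in WT, 1235, 913, 1374 and 1453 CPM in Line7 and 1414, 2083, 814 and 1470.1 CPM in Line8. The library labelled Line7 replicate 2 and Line8 replicate 3 lay at the WT level, the latter just below the lowest WT library, and the remaining line libraries above WT. The log2 fold change was 0.52 (SE 0.259, edgeR adjusted p = 0.146) in Line8 and 0.31 (adjusted p = 0.471) in Line7, neither past the threshold. Without Line8 replicate 3 the Line8 value was 0.76 and passed it (adjusted p = 0.0251), and without Line8 replicate 2, the highest library, it was 0.31 (adjusted p = 0.378). The plastid-encoded partner of this docking site, psaC, was at 28.3, 24.3, 26.8 and 22.3 CPM in WT, 12.7, 15.4, 15 and 13.8 CPM in Line7 and 11.4, 17.8, 34.8 and 14.2 CPM in Line8. All Line7 libraries, replicate 2 included, lay below all WT libraries, a pattern that 6.46% of tested rows showed, while Line8 replicate 3 lay above WT. The psaC change did not pass the threshold in either line (log2 fold change -0.84, edgeR adjusted p = 0.0836 in Line7, and -0.38, adjusted p = 0.323 in Line8). Other plastid genes had very few counts over all libraries (psaA 24, psaB 4 and psbA 32), though psbB had 2352 and psaC 3900. Whether the psaC counts follow the level of its mRNA in the plastid was not tested.

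PsaF and PsaN face the thylakoid lumen. PsaF provides the docking site for plastocyanin, and PsaN, known from Arabidopsis, is a small lumenal protein needed for efficient electron transfer from it. PsaN was at 839.7, 1225, 899.8 and 1042 CPM in WT, 1446, 747, 1934 and 1733 CPM in Line7 and 1677, 3413, 1326 and 1815 CPM in Line8. Every Line8 library exceeded every WT library, while the library labelled Line7 replicate 2 was the lowest of all 12. PsaN averaged 1002 ± 172 CPM in WT (SD, n = 4) and rose in Line8 to 2058 ± 927 CPM (log2 fold change 1.04, SE 0.330, edgeR adjusted p = 0.0339). That call was lost without WT replicate 1 (adjusted p = 0.0767), WT replicate 3 (0.0826), WT replicate 4 (0.0693), Line8 replicate 2 (0.0968) or Line8 replicate 4 (0.0545). Line8 replicate 2, at 3413 CPM, was far above the other Line8 libraries. Without it the log2 fold change of PsaN was 0.70. In Line7 the change was 0.55 (adjusted p = 0.301), short of the threshold.

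PsaF was at 466, 959.8, 801 and 803 CPM in WT, 1129.8, 663, 1145 and 1209 CPM in Line7 and 1267, 2298, 506 and 1592 CPM in Line8. Its Line7 libraries 1, 3 and 4 lay close together above WT. The Line8 libraries spread from 506 CPM, inside the WT range, to 2298 CPM. In Line8 its fitted log2 fold change reached 0.90 (SE 0.382, edgeR adjusted p = 0.0948), and in Line7 0.45 (adjusted p = 0.469), neither past the threshold. Without Line8 replicate 3 PsaF passed the threshold in Line8 (log2 fold change 1.22, adjusted p = 0.0132), and without Line8 replicate 2 its value was 0.58 (adjusted p = 0.267).

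PsaG and PsaK are related membrane proteins at the edges of the core, and in Arabidopsis both help to bind the light-harvesting antenna. PsaK was at 349.8, 693, 592 and 654 CPM in WT, 1191, 566, 1543 and 1238 CPM in Line7 and 1225, 1709, 465 and 976 CPM in Line8. WT libraries averaged 572 ± 154 CPM (SD, n = 4), Line7 libraries 1134 ± 409.9 CPM and Line8 libraries 1094 ± 518 CPM. PsaK was the 1 member whose fitted change was not larger in Line8 than in Line7 (log2 fold changes 0.94 and 0.99, edgeR adjusted p = 0.0864 and 0.123). Without the library labelled Line7 replicate 2 it passed the threshold in Line7 (log2 fold change 1.21, adjusted p = 0.0282), and without Line8 replicate 3 in Line8 (1.23, adjusted p = 0.0217). The Line8 value without Line8 replicate 2 was 0.64 (adjusted p = 0.230).

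PsaG was at 436, 700.3, 599.7 and 699 CPM in WT, 968, 510.3, 1236 and 889 CPM in Line7 and 1156, 1552, 349.8 and 817 CPM in Line8. Line8 replicate 3 was the lowest of all 12 libraries, while the other Line8 libraries exceeded WT. The change did not pass the threshold in Line8 (log2 fold change 0.67, SE 0.384, edgeR adjusted p = 0.208) or in Line7 (0.57, adjusted p = 0.366). The Line8 value of PsaG was 0.99 (adjusted p = 0.0337) without Line8 replicate 3 and 0.35 (adjusted p = 0.515) without Line8 replicate 2.

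PsaH, PsaL and PsaO lie together on the side of the complex where, in Arabidopsis, mobile light-harvesting complex II attaches during state transitions, the redistribution of antenna between the photosystems. The largest and some of the smallest changes of the set fell within this trio. PsaH was at 237, 289, 188 and 258 CPM in WT, 897, 214, 1113 and 945 CPM in Line7 and 1056, 2218, 530.5 and 1293 CPM in Line8. All Line8 libraries and Line7 replicates 1, 3 and 4 lay well above WT, and the library labelled Line7 replicate 2 lay inside the WT range. PsaH averaged 243 ± 42.5 CPM in WT (SD, n = 4) and rose 5.24-fold in Line8, where it averaged 1274 ± 705 CPM (log2 fold change 2.39, SE 0.484, edgeR adjusted p = 0.00480), and this call held with each of the 12 libraries left out. In Line7 it was at 792 ± 396 CPM, a fitted 3.26-fold change (log2 fold change 1.70, SE 0.472, adjusted p = 0.0481).

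PsaO was at 331, 416, 275 and 358 CPM in WT, 801, 273, 1032 and 939 CPM in Line7 and 968, 1838, 568 and 1009.6 CPM in Line8. Its libraries were ordered almost as those of PsaH, with Line8 replicate 2 highest and the library labelled Line7 replicate 2 lowest, just under the lowest WT library. PsaO rose 3.18-fold in Line8, to 1096 ± 533 CPM from 345 ± 58.8 CPM in WT (SD, n = 4; log2 fold change 1.67, SE 0.402, edgeR adjusted p = 0.0107), also with each of the 12 libraries left out. PsaO did not pass in Line7 (log2 fold change 1.14, SE 0.397, adjusted p = 0.0922), and without the library labelled Line7 replicate 2 it was 1.42 with an adjusted p of 0.00615.

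PsaL, which in cyanobacteria links photosystem I monomers into trimers, was at 937, 1661, 1387 and 1379 CPM in WT, 1784, 1264, 2009 and 1991 CPM in Line7 and 1759, 3338, 605 and 2101 CPM in Line8. Line8 replicate 3 was the lowest and Line8 replicate 2 the highest of all libraries. The log2 fold change was 0.54 (SE 0.388, edgeR adjusted p = 0.314) in Line8 and 0.39 (adjusted p = 0.544) in Line7. Leaving out Line8 replicate 3 gave PsaL a value of 0.88 in Line8 (adjusted p = 0.0343), and leaving out Line8 replicate 2 gave 0.16 (adjusted p = 0.769).

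**Figure D3:**
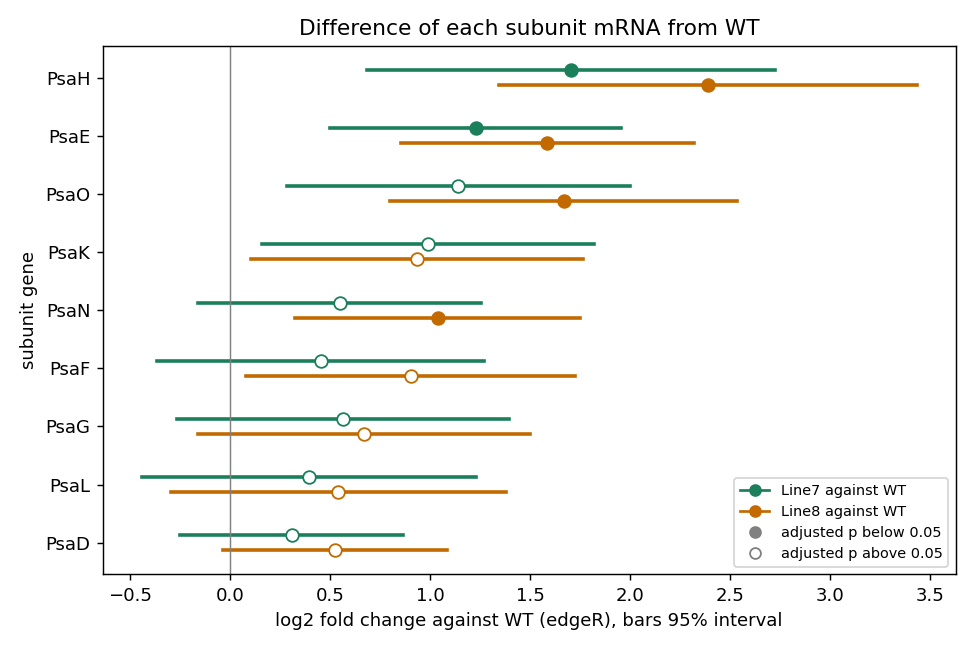
Log2 fold change of each gene in Line7 and Line8 against WT (edgeR), with 95% intervals. Filled points have an adjusted p below 0.05. PsaH, PsaE and PsaO lie farthest to the right, and the intervals of PsaD, PsaL and PsaG include 0 in both lines.

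How many members passed the threshold depended on single libraries. With Line8 replicate 3 left out, all 9 rose in Line8 against WT (16% of all rows were called higher in that fit), and 8 of 9, all but PsaL, rose for the mean of both lines (16.5% of rows). With Line8 replicate 2 left out, the library in which all 9 were highest, 3 rose in Line8, PsaH, PsaE and PsaO (14.9% of rows), and the median log2 fold change of the 9 genes was 0.64, against 1.23 without Line8 replicate 3. With the library labelled Line7 replicate 2 left out, PsaE, PsaH, PsaK and PsaO rose in Line7 (14.9% of rows), and these with PsaN rose for the mean of both lines (18.4% of rows). The Line7 call of PsaE held without the library labelled Line7 replicate 2 (adjusted p = 0.000353) or Line8 replicate 3 (0.0417), and with each of the other 10 libraries left out it missed the threshold (adjusted p from 0.0505 to 0.155). The PsaH call held with the library labelled Line7 replicate 2 (0.00172), Line8 replicate 3 (0.0299) or replicate 2 of Line8 (0.0450) left out, and with each of the other 9 left out it missed the threshold (0.0537 to 0.152). The call of PsaO for the mean of both lines was lost without WT replicate 3 (0.0609). These adjusted p-values cover all tested rows, so a lost call also reflects the p-values of other genes. In the fits that lost the Line7 call of PsaE or PsaH, 0.0341 to 6.94% of all rows were called, against 6.97% with all libraries. The share was 0.0341 to 0.0877% without WT replicate 1, 3 or 4 or Line7 replicate 1 or 3. The Line7 log2 fold change itself stayed between 1.04 and 1.50 for PsaE and between 1.50 and 2.02 for PsaH over the 12 fits.

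**Figure D4:**
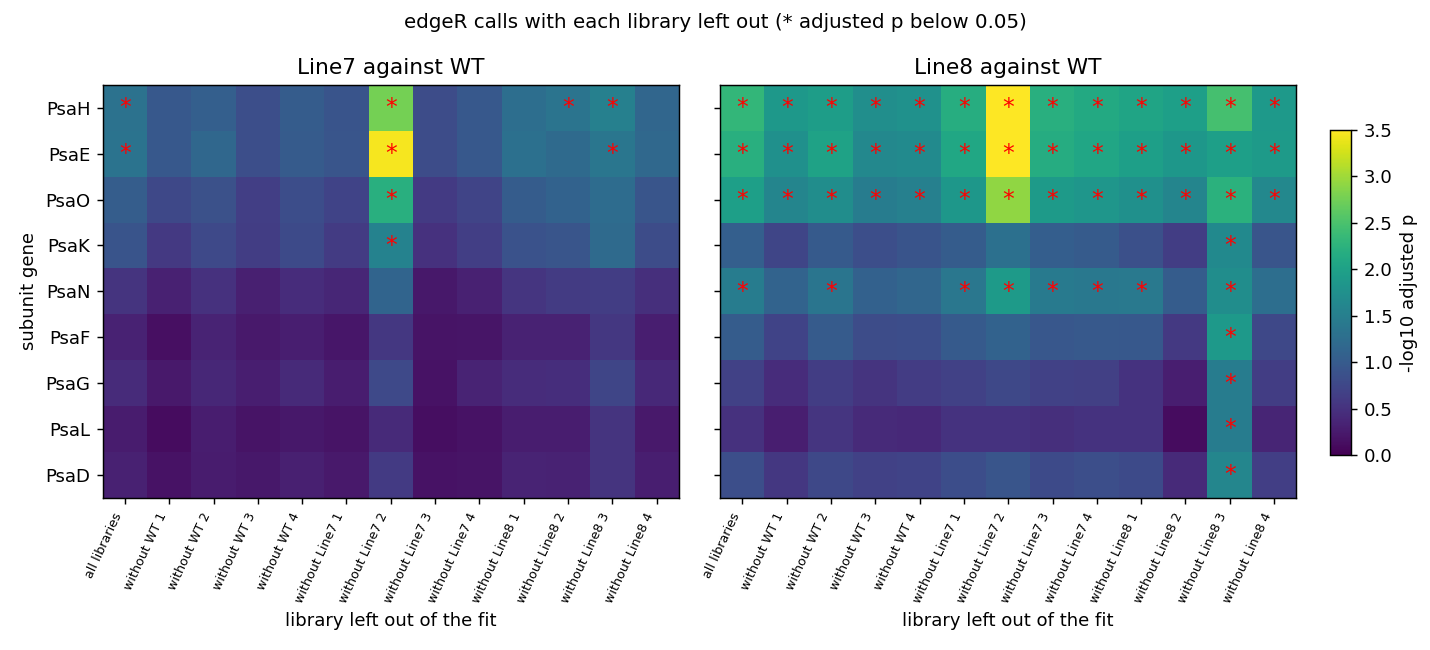
Strength of the edgeR call of each gene (colour, -log10 adjusted p, with values beyond the scale in its last colour) with all libraries and with each of the 12 libraries left out, for Line7 and Line8 against WT. Stars mark an adjusted p below 0.05. PsaH, PsaE and PsaO are starred in every Line8 column, all 9 genes without Line8 replicate 3, and 4 genes in the Line7 column without the library labelled Line7 replicate 2.

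By separation of the libraries, 4 of 9 genes (PsaE, PsaH, PsaN and PsaO) had every Line8 library above every WT library, as did 16.1% of tested rows. Without Line8 replicate 3 all 9 did, against 20.3% of rows. Line8 replicate 3 was the lowest Line8 library for every gene of the set but PsaE, so leaving it out favours separation. In Line7 0 of 9 separated fully, where 4.71% of tested rows did so above WT and 6.46% below. Without the library labelled Line7 replicate 2 all 9 lay above WT, against 21.4% of rows. That library was the lowest of Line7 for all 9 genes, so leaving it out also favours separation.

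No difference between the lines passed the threshold in these genes. In Line8 against Line7, 0 of 9 passed the threshold in edgeR, 0 had an unadjusted p below 0.05, and DESeq2 and limma-voom also called 0. Of all rows, edgeR called 0.0247%, limma-voom 0.0198% and DESeq2 2.34% in this comparison. The largest fitted difference was that of PsaH, 0.69 on the log2 scale (95% interval -0.31 to 1.68, adjusted p = 0.459), followed by PsaO at 0.53 (-0.32 to 1.37) and PsaN at 0.49 (-0.22 to 1.20). PsaK was at -0.05 (-0.87 to 0.77). All 9 intervals include 0, so these data show neither a difference between the lines nor that they were alike.

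The make-up of the set also differed between groups. As each member's share of the counts of all 9 is taken within a library, it does not depend on the scaling between libraries. PsaH made up 5.04, 3.89, 3.12 and 3.93% of these counts in WT replicates 1 to 4, 8.76, 3.96, 8.98 and 8.38% in Line7 and 9.33, 11.3, 8.55 and 10.9% in Line8. PsaO made up 7.03, 5.59, 4.55 and 5.45% in WT, 7.82, 5.04, 8.33 and 8.32% in Line7 and 8.56, 9.36, 9.16 and 8.53% in Line8. Both shares were higher in all Line8 libraries than in any WT library, and the library labelled Line7 replicate 2 had the shares of WT. PsaL went the other way, with 19.9, 22.3, 23.0 and 21% in WT, 17.4, 23.3, 16.2 and 17.6% in Line7 and 15.5, 17.0, 9.76 and 17.8% in Line8. PsaK made up 7.44 to 9.96% in WT and 10.4 to 12.5% in Line7, so that all Line7 libraries, replicate 2 included, lay above WT, while Line8 overlapped WT. PsaD likewise was lower in share in every Line8 library (10.6 to 13.1%) than in any WT library (14.7 to 17.5%). Together PsaE, PsaH and PsaO held 12.0 to 18.1% of the set's counts in WT and the library labelled Line7 replicate 2, 24.3 to 25.4% in the other Line7 libraries and 24.9 to 34.4% in Line8. In Line8 replicate 3 PsaE alone held 16.7%, against 6.04 to 7.03% in the other Line8 libraries, and PsaN 21.4% against 14.8 to 17.4%. These shares were compared after the levels were seen and were not tested.

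**Figure D5:**
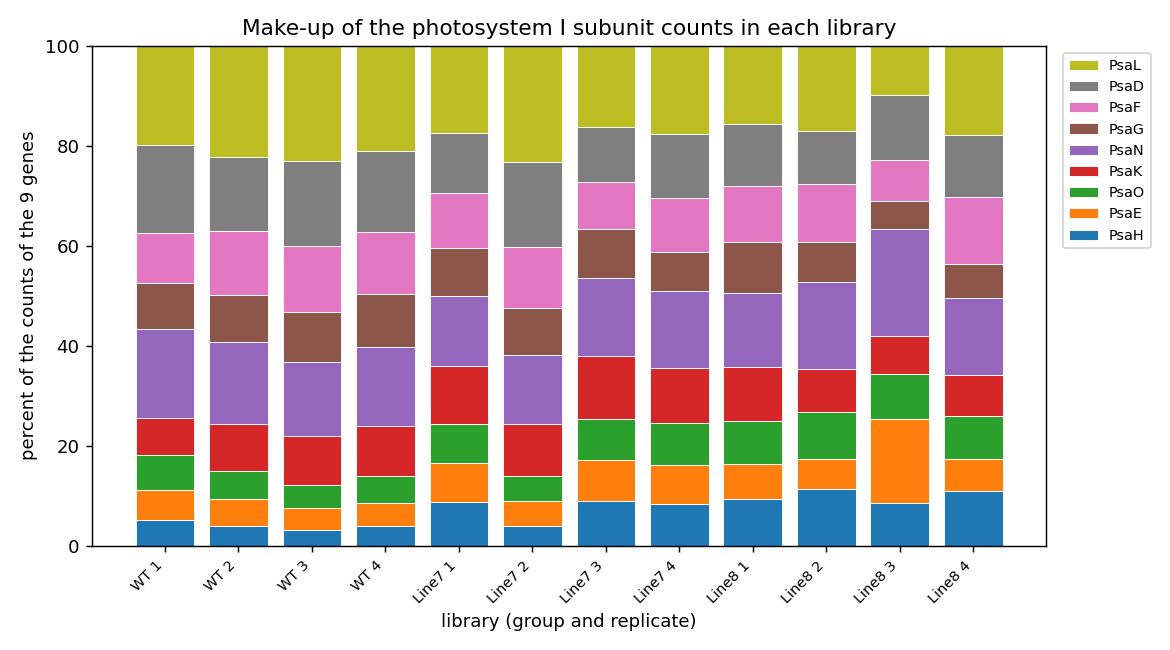
Share of each gene in the summed counts of the 9 genes, 1 stacked bar per library, in percent. The lower 3 segments (PsaH, PsaE and PsaO) take 12.0 to 18.1% in WT and in the library labelled Line7 replicate 2, and 24.3% or more in the other line libraries. Line8 replicate 3 has the largest PsaE segment (16.7%).

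Over the 12 libraries the members' log2 CPM followed each other to different degrees. Pearson coefficients of the 36 pairs ran from 0.38 for PsaE with PsaL to 0.99 for PsaH with PsaO, with a median of 0.86. These are descriptions, since the libraries fall into clusters and share their scaling. Among all tested rows outside the set, Os03g0413000 was most like the mean profile of the 9 genes (Pearson coefficient 0.98 over 12 libraries), followed by Os08g0435900 (0.97), which is also on the list of antenna IDs. Set against the mean of the other 8 members, PsaD was closest (0.96) and PsaE farthest (0.74).

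The remaining genes of photosystem I could be followed only in part. Of the plastid-encoded reaction centre genes, psaA had 24 and psaB 4 counts over all 12 libraries, too few to test. The plastid genes psaI, psaJ, ycf3 and ycf4 were not analysed here. Of 6 locus IDs listed from memory for the nuclear-encoded photosystem I antenna, which the files do not name, 2 rose and 0 fell in Line8 and 1 rose and 0 fell in Line7, with median log2 fold changes of 0.81 and 0.73, where 15.5% of all rows were called higher in Line8 and 5.92% in Line7. Os08g0435900 rose in Line8 (log2 fold change 1.37, edgeR adjusted p = 0.0188). Os09g0439500 rose in Line8 (4.76, adjusted p = 0.00340) and in Line7 (4.80, adjusted p = 0.0148), from 24 to 42 counts in the WT libraries to 287 to 1711 in those of Line8. In Line7 replicates 1 to 4 it had 1264, 47, 1605 and 504 counts. The library labelled Line7 replicate 2 was thus near WT, at 2.63 CPM against 1.47 to 2.43 CPM. Of 5 IDs listed in the same way for nuclear-encoded photosystem II subunits, 3 rose and 1 fell in Line8, and 1 rose and 0 fell in Line7, with medians of 1.27 and 0.86, beside 11.8% of all rows called lower in Line8. Os07g0544800 rose in both lines (log2 fold change 1.88 in Line7, edgeR adjusted p = 0.0476, and 2.33 in Line8, adjusted p = 0.00799), and Os01g0501800 (1.83) and Os07g0141400 (1.27) rose in Line8. The ID that fell in Line8, Os07g0147500, had 34 to 2047 counts a library, and its WT libraries ranged from 10.9 to 122 CPM. The corresponding medians of the 9 photosystem I subunits were 0.94 and 0.57, and no difference between the lists was tested. Of 12 plastid rows for photosystem II subunits, 1 was abundant enough to test.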

How the data were processed

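Leaf RNA was extracted with Trizol, per the labels' protocols. The authors deposited whole-number counts per annotated gene, 1 column per library. Aligner, counter, genome build, strand setting and mRNA selection: not given in the sources used here, so reads of overlapping, antisense or near-identical genes may be misassigned. The members and gene lists were chosen with earlier results of these data known. All 9 members were named whatever their values, as were the target's ID, the plastid psa and ycf genes, and the 2 other rows most like the members' mean profile. No sequences of the members were used here.

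Counts were fitted with edgeR 4.0.16 (R 4.3.3) over all genes and all 12 libraries: filterByExpr, TMM, robust glmQLFit, glmQLFTest with group as factor, and Benjamini-Hochberg adjustment over 20217 rows with a threshold of 0.05. The SE of a log2 fold change was its size divided by the root of F. CPM used the counts in tested rows as the library size, after TMM. Principal components used log2 CPM with a prior count of 2. Alternatives were other size factors and filters, DESeq2 1.42.0, limma-voom (limma 3.58.1), fits of only the libraries compared, a replicate block, each library left out, and, chosen after seeing the data, 3 libraries left out together. Library pairs (66) had chi-square values of 13.6 to 228 per degree of freedom, far above sampling noise, so each library counted as 1 sample. Season and site are not tied to single libraries in the labels, and batches were therefore not modelled.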

Additional observations from a re-analysis of the deposited data

Results flagged for a closer look

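In Line7, replicate 2 lay far below the other 3 libraries for PsaF, at 663 CPM against 1129.8 to 1209 CPM, and for PsaH, at 214 CPM against 897 to 1113 CPM (Dixon's test at 95% on log2 CPM). Among the 30 combinations of gene and group tested, chance marks about 1 in 20, and these 2 are the same library, which also lay with WT by its whole profile and by the level of the target's ID.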

How the results depend on the processing

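In Line8, Line7 and their mean against WT, every one of the 9 fitted changes was above 0 under all alternatives run, 22 for each line and 21 for the mean. The number of members called in Line7 (2) was 0 with upper-quartile size factors, limma-voom, the replicate block or only the libraries compared, 1 without a filter on low counts, 0 to 4 with single libraries left out, and 5 with WT replicate 1, the library labelled Line7 replicate 2 and Line8 replicate 3 left out together, a choice made after the data were seen. Of all rows, upper-quartile scaling called 5.98% in Line7, limma-voom 0.109%, the fit of only the libraries compared 2.98% and the unfiltered fit 4.4%. With single libraries left out 0.0341 to 25.2% of all rows were called in Line7. The number in Line8 (4) was 5 with DESeq2 (33.3% of all rows called), 3 to 9 with single libraries left out (16.8 to 31.7%) and 9 with those 3 left out together. For the mean of both lines (3) it was 5 with library totals only (22.1% of all rows called) or with DESeq2 (30.1%). It was 2 to 8 with single libraries left out (11.2 to 35.0%), and 9 with the 3 left out together. With these 3 left out, 32.9% of all rows were called in Line7, 36.0% in Line8 and 40.4% for the mean, against 6.97, 27.3 and 24.3% with all libraries. In Line8 against Line7 it was 0 throughout. There, differences near 0 changed sign. With limma-voom PsaG was at -0.019 and PsaL at -0.065. With single libraries left out PsaG ran from -0.18 to 0.41, PsaL from -0.20 to 0.47 and PsaK from -0.31 to 0.22. The cause was not tested. Upper-quartile scaling moved the median of all rows by -0.115 in Line8, and the members' median stood 1.00 above that of all rows with either scaling; with it 46.3% of called rows were higher, against 56.8% (mean of both lines 48.4% against 58.6%). Same-numbered libraries share only a number: 4 of 12 such pairs had deviations from their group means that correlated above 0.1 (range -0.387 to 0.332), and 4 of 12 libraries correlated best with their own number. With the replicate block 0 members were called in Line7, 3 in Line8 (PsaN missed the threshold, adjusted p = 0.0677), 3 for the mean and 0 between the lines. Of all rows, that fit called 2.35% in Line7, 23.9% in Line8, 21.1% for the mean and 0% between the lines. Shares within the set moved by construction when PsaL was left out of the sum. Depth limits no member.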

Other observations

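The counts of PsaH per 100 counts of PsaL, a ratio within each library chosen after the values were seen, were 25.3, 17.4, 13.6 and 18.7 in WT replicates 1 to 4, 50.3, 17.0, 55.4 and 47.5 in Line7, and 60.0, 66.5, 87.6 and 61.5 in Line8. Line8 replicate 3, where PsaL lay below WT, had the highest ratio, and the library labelled Line7 replicate 2 lay inside the WT range. The groups WT and Line8 did not overlap. No test was made.

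The row most like the members' profile, Os03g0413000, which the files do not name, averaged 15.2 ± 3.76 CPM over the WT libraries (SD, n = 4), 26.6 ± 9.20 CPM over those of Line7 and 34.3 ± 15.9 CPM over those of Line8. It was chosen for following the 9 genes, so its levels are given without a test.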
